A study of Homo sapiens with 4 samples.

Results

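The ends of chromosomes 4 (4q35) and 10 (10q26) carry arrays of D4Z4, a tandem repeat with a copy of the homeobox gene DUX4 in each unit, and the peaks described here are those that SVS-1 capture gave at these ends. They were chosen by position alone, as the rows of the deposited peak lists of hg38 that start at or above 189.8 Mb on chromosome 4 or 133.6 Mb on chromosome 10. The rule found 7 of the 801 peaks of the series: 5 of the 406 of replicate A and 2 of the 395 of replicate B. At 4q35 A had 3 peaks and B had 1, and at 10q26 A had 2 and B had 1. Because the peaks were chosen by where they were called, their presence at these ends is not a finding.

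SVS-1 is a cationic cell-penetrating peptide. In Chem-seq, DNA near a biotin-tagged compound is fixed, pulled down on streptavidin and sequenced. The 2 capture libraries, A and B, came from A549, an established human lung adenocarcinoma line, exposed to 15 µM of N-terminally biotinylated SVS-1 for 1 h at 37 °C, replated overnight and fixed for 15 min in 1% paraformaldehyde. The other 2 libraries, inputs A and B, carry the same treatment text and were made from lysate kept before capture. No background stands beside the peaks, because the inputs were not analysed here, and the labels name no culture without peptide. The design text describes A and B as biological replicates without saying what was kept separate. The lists carry no read depth.

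DUX4 is a transcription factor of the early embryo that is silenced in most adult tissues by the chromatin of the repeat. Shortening of the 4q array, or loss of its repressors, is known to let the last copy of DUX4 be expressed in muscle in facioscapulohumeral muscular dystrophy. A polyadenylation signal just beyond the last repeat of permissive 4q alleles stabilises its transcript. The 10q array is nearly identical in sequence but is not usually linked to the disease. FRG1, FRG2 and FRG2B are genes near the arrays that were named for that disease region. FRG1 encodes a nuclear actin-bundling protein linked to RNA processing.

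The FRG2 promoters are shown as 1 pair of copies that both ends carry. No peak lies in them, and the sequences under the peaks were not compared. The RefSeq windows of FRG2 at 4q (chr4:190027207-190027506, minus strand) and FRG2B at 10q (chr10:133626746-133627045, minus strand), both on GRCh38 patch 14, were identical over 299 of 299 aligned bases, and their annotated starts differ by 1 base. Capitals mark TATAAA, which begins 29 bases before the start of FRG2 and 28 before that of FRG2B.
FRG2: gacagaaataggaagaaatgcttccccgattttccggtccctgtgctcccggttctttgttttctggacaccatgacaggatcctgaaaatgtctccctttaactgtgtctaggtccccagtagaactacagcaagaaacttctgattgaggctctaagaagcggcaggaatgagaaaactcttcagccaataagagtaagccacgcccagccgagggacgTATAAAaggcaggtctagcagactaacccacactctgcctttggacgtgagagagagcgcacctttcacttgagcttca
FRG2B: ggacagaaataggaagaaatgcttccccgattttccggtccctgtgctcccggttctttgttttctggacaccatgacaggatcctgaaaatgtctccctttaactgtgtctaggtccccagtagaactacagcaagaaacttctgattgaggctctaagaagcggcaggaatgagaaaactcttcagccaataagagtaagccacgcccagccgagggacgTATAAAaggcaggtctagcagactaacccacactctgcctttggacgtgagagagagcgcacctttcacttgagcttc
A read lying wholly within this stretch has no base by which an aligner could assign it to 4q or 10q. The copy on chromosome 3, FRG2C, matched FRG2 at 290 of 300 bases. TATAAA, searched on both strands, was present in 11.5% of the 35116 RefSeq promoter windows of the same length.

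The DUX4 window (chr4:190173524-190173823, plus strand) is shown because it fixes the strand and the origin from which the 4q peaks are measured. Capitals mark each CG pair. The annotated start of the gene, the first base after the 250 upstream ones, is the a of an atg, where the coding sequence of DUX4 opens.
DUX4: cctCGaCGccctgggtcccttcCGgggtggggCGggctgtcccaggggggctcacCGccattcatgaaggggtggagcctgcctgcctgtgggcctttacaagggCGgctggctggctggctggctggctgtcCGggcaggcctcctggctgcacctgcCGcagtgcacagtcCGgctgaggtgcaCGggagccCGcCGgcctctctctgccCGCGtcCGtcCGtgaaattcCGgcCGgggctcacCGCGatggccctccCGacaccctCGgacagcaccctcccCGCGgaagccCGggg
Its GC content was 73.3%, above that of 87.0% of promoter windows (median 58.7%), and it held 25 CG pairs against a median of 14. FRG1 had 66.7% GC and 30 CG pairs, FRG2 49.0% and 9, and FRG2B 49.3% and 9. GGGCGG, searched on both strands, was found in the DUX4 and FRG1 windows and not in those of FRG2 and FRG2B, and in 45.0% of all windows. Neither replicate had a peak in any of the 4 windows. The peak nearest to the DUX4 window lay 3.68 kb away in A and 3.58 kb in B.

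The strongest peak of both lists at these ends lay inside DUX4, downstream of its coding start. In A it covered chr4:190177501-190180200 (2700 bp) with a score of 41.12, and in B chr4:190177401-190180200 (2800 bp) with a score of 26.97. The score is the authors' own value, with no stated scale and no value below 4, and it is used here only within a list. The peak ranked 28 of 406 in A and 46 of 395 in B, above 93.1% and 88.4% of the peaks of its list. Both calls ended at the same base and their starts differed by 1 window of the 100 bp grid on which the lists are drawn, so that B covered the whole of the peak of A. The RefSeq span of DUX4 is 12.1 kb (190173774 to 190185911). The peak began 3.73 kb from the start of the gene in A and 3.63 kb in B, ended at 6.43 kb in both, and took up 22.2% and 23.1% of the span. Exons were not in the annotation used, so it is not stated which part of the transcript lies under the peak.

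A second peak in DUX4 was called in A only, at chr4:190181201-190181300, with a score of 4.32 (rank 334 of 406). It is a single 100 bp window, 1000 bases beyond the strong peak. The third peak of A at 4q, chr4:190022101-190022600, scored 4.88 (rank 271) and lay inside DUX4L9. DUX4L9, also called DUX4C, is a DUX4-like copy on the centromeric side of the array, and the peak covered 33.4% of its 1497 bp. FRG2 and RNA5SP175, a pseudogene of 5S ribosomal RNA, were 1.77 and 4.29 kb from it. B had no peak there.

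At 10q26 the strongest peak of each list stood just beyond a block of DUX4 copies. In A it covered chr10:133686801-133690300 (3500 bp) with a score of 16.88, and in B chr10:133687401-133690200 (2800 bp) with a score of 9.50. It ranked 63 of 406 in A and 149 of 395 in B. The peak of B lay wholly inside that of A and took up 80.0% of it. The stretch touched no annotated gene. Lying inside or outside a gene depends here on the annotated span, which is 12.1 kb for DUX4 and 1525 bp for DUX4L20. The nearest was DUX4L20, the last of 6 regularly spaced copies (DUX4L25 to DUX4L20), whose far edge was 1.61 kb away in A and 2.21 kb in B. A weaker peak, chr10:133762901-133763700, was called in A only with a score of 7.12 (rank 184). It stood 1.77 kb beyond DUX4L15, the last copy of the other 10q block of 6 (DUX4L10 to DUX4L15).

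**Figure D1:**
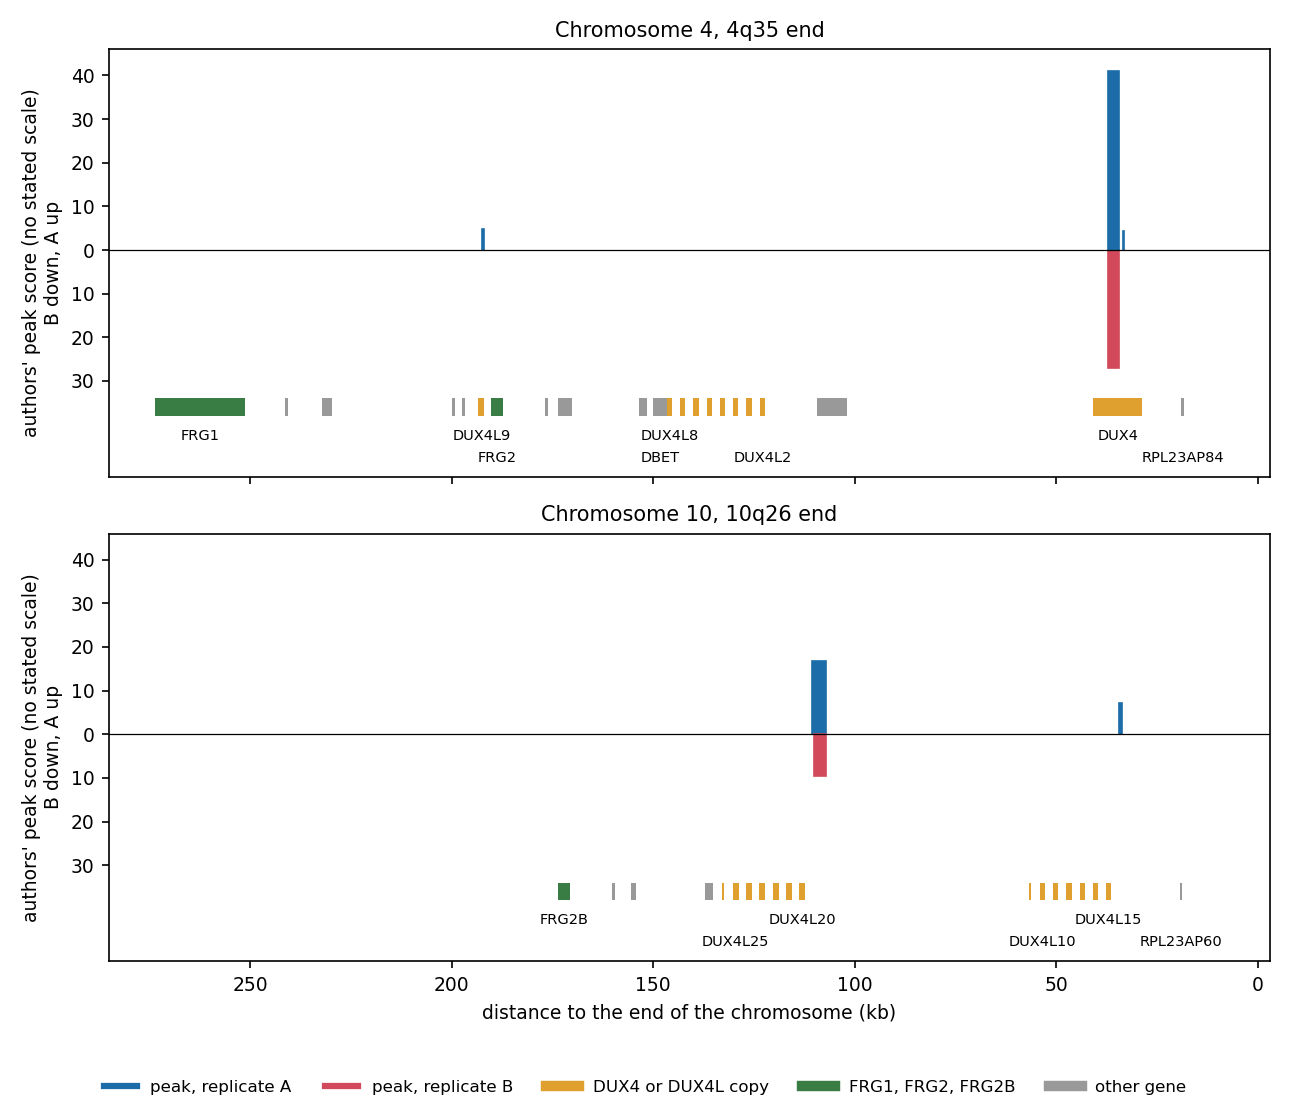
Peaks at the 4q35 (top) and 10q26 (bottom) ends against the distance to the chromosome end in kb. Bar width is the peak's width and bar height its score, with replicate A upward and replicate B downward; boxes are annotated genes, at 4q from FRG1 on. The tallest bars stand in DUX4 (41.12 in A, 26.97 in B), and no bar stands over the copies from DUX4L8 to DUX4L2 or over FRG1, FRG2 and FRG2B.

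Measured from the nearest copy on their lower-coordinate side, DUX4 at 4q and DUX4L20 at 10q, the strong peaks of both ends lay at nearly the same place. These origins are not alike, since DUX4L20 ends a block of regularly spaced copies and DUX4 stands apart, 81.5 kb beyond DUX4L2, which ends such a block at 4q. Measured from DUX4L2, the next peak was 85.2 kb away in A and 85.1 kb in B. These distances are in assembly coordinates, and whether the assembly has gaps in between was not checked. At 4q the midpoint was 5.08 kb from the start of DUX4 in A and 5.03 kb in B. At 10q it was 4.88 kb from the lower edge of DUX4L20 in A and 5.13 kb in B. Within a replicate the ends thus differed by less than the width of either peak. That is a loose measure, because these peaks are nearly as wide as the spacing of the copies, or wider. The 10q origin is less exact, because DUX4L20 is annotated with 1525 bp, DUX4L15 with 1279 bp and most 4q copies with 1285 bp, and the strand of the pseudogenes was not in the table used. The weak 10q peak of A began at 3.04 kb from the lower edge of DUX4L15 and ended at 3.84 kb. Neighbouring copies within a block are spaced by 3293 to 3300 bp at 4q and by 3299 to 3310 bp at 10q. The strong peaks and the weak 10q peak of A began 3.04 to 3.73 kb from the lower edge of that nearest copy. The weak DUX4 peak of A began farther on, at 7.43 kb.

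**Figure D2:**
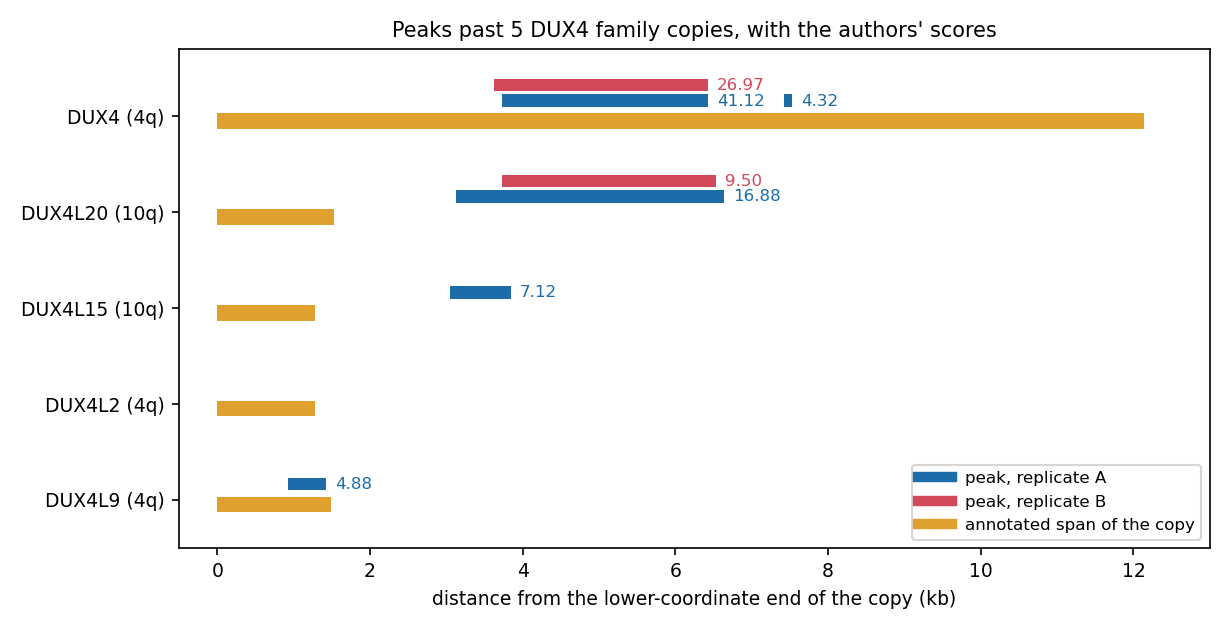
Peaks placed by their distance in kb from the lower-coordinate end of 5 DUX4 family copies, with the authors' score beside each peak. The strong peaks at 4q run from 3.63 or 3.73 to 6.43 kb in DUX4. Those at 10q run from 3.13 or 3.73 to 6.63 or 6.53 kb, measured from the lower edge of DUX4L20. DUX4L2, the last of the regularly spaced 4q copies, has no peak in the range drawn.

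The blocks of regularly spaced copies held no peak. This does not cover DUX4 itself, which stands apart from the 4q block and had the strong peak. The 8 copies of the 4q block from DUX4L8 to DUX4L2 (190067935 to 190092289, 24.4 kb) had 0 peaks in either replicate. The peak nearest to this block lay 45.3 kb away in A and 85.1 kb in B. Both 10q blocks of 6 copies also had 0 peaks within them. With the 5 kb on either side, 2 of the 10 DUX4 family genes at 4q had a peak in A (DUX4 and DUX4L9) and 1 in B (DUX4). Of the 14 at 10q, 3 had one in A (DUX4L21, DUX4L20 and DUX4L15) and 1 in B (DUX4L20). Over all 58961 annotated genes the share was 0.142% in A and 0.129% in B, and since the peaks were chosen at these ends nothing is read from the difference. DBET, the long non-coding RNA gene at the centromeric edge of the 4q array, lay 41.9 kb from the nearest peak in A and 109.5 kb in B. The copies are nearly identical, and how reads that fit several copies were placed is not given in the sources used here. A lack of peaks over the copies and a loss of reads that fit many places cannot be told apart. For the same reason the 4q and 10q peaks may share reads, which was not tested.

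Genes shared by both ends gave a second ruler. A pseudogene of RPL23A lies 18.3 kb from the end of chromosome 4 (RPL23AP84) and 18.7 kb from that of chromosome 10 (RPL23AP60). The strong DUX4 peak stood 15.5 kb from RPL23AP84 in both replicates, and the weak DUX4 peak of A stood 14.4 kb from it. The 10q peak nearest to these distances was the weak one of A, 14.5 kb from RPL23AP60. The strong 10q peak was 87.9 kb away in A and 88.0 kb in B. Gaps in the assembly were not checked here either. By this ruler, therefore, the weak 10q peak of A lay nearer to the place of the weak DUX4 peak than to that of the strong one. B had no 10q peak there. By distance to the nearest copy, the strong 10q peak, called in both, was the one that matched the strong DUX4 peak.

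No peak of either replicate touched an FRG gene of the 2 ends. FRG1 (189940872 to 189963192) lay 58.9 kb from the nearest peak in A and 214 kb in B. FRG2 lay 1.77 kb from the DUX4L9 peak of A, and 150 kb from the nearest peak in B. FRG2B lay 60.0 kb from the nearest peak in A and 60.6 kb in B. FRG2C on chromosome 3 had no peak within 5 kb in either replicate. Of these 4 genes, only FRG2 had a peak within 5 kb, and only in A.

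Both replicates called the highest-scoring peak of each end, and the other peaks of A were not shared. Of the 5 peaks of A, 2 overlapped a peak of B by at least 1 bp (40.0%), where 66.3% of all peaks of A did so. Both peaks of B overlapped one of A (2 of 2), where 65.6% of all peaks of B did. The shared peaks of A and of B are the same 2 places, counted from either list. Peaks of a repeat array may share reads and are not independent. With so few of them, nothing is read from either share beside its background. The unshared peaks of A scored 7.12, 4.88 and 4.32, of which the first was above the median of its list (6.73). The shared 10q peak of B, with 9.50, was above 62.3% of its list. In the whole list of A, 26.1% of peaks scoring 4 to under 5, 76.6% of those scoring 5 to under 10 and 99.2% of those scoring at least 10 were shared. In B the classes of the 2 peaks had 77.2% (5 to under 10) and 77.8% (at least 10). The shares over the list of B include its 56 peaks on chromosome Y, where A had 0 peaks and none could be shared. In both replicates the DUX4 peak scored above the strong 10q peak (41.12 against 16.88 in A, 26.97 against 9.50 in B). No test was made of this order, since each list gives 1 value for each place. The peaks at these ends covered 7.6 kb in A (1.82% of the length called) and 5.6 kb in B (1.11%). Of that, 4q gave 3.3 kb and 2.8 kb and 10q gave 4.3 kb and 2.8 kb.

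**Figure D3:**
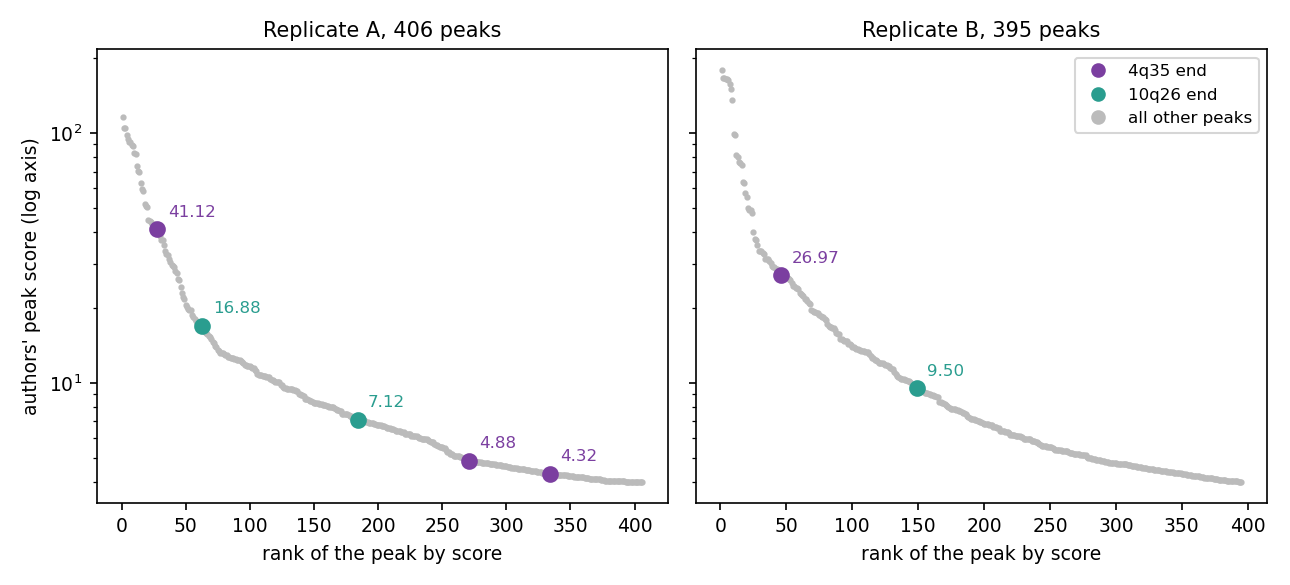
Authors' peak score (log axis) against rank for all peaks of replicate A (left) and replicate B (right), with peaks of the 4q35 end and of the 10q26 end coloured. The DUX4 peak ranks 28 in A and 46 in B, the strong 10q peak 63 and 149, and the unshared peaks of A rank 184, 271 and 334.

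Around the limits of the rule, the last peaks left out on chromosome 4 began at 189235001 in A (score 4.85) and 189233701 in B (4.25), 705 and 707 kb from FRG1. They did not overlap and were 800 bases apart. On chromosome 10 the last one left out began at 42085601 in A (4.01) and at 130382201 in B (4.11). The first inside scored 4.88 (A) and 26.97 (B) on chromosome 4, and 16.88 and 9.50 on chromosome 10. Most other peaks of these chromosomes were far away: 30 of the 33 peaks of A and 35 of the 36 of B on chromosome 4, and 30 and 31 of the 32 in each list on chromosome 10, lay outside the ends.

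Few other chromosome ends had peaks. In the last 420 kb, 3 of 48 ends had a peak in both replicates: 4q, 10q and 18p, where the peak that overlapped the pseudogene ROCK1P1 in part scored 43.94 in A and 33.76 in B. A had peaks at 3 ends and B at 5. In the last 200 kb the count in both was also 3. All 48 ends were counted without checking that their windows hold assembled sequence, so some may be ends where no peak could be called.

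Lists of neighbouring genes, DUX4 targets and regulators of D4Z4, taken from textbook knowledge and without the DUX4 and FRG genes, had no member with a peak within 5 kb. They support no test. None of 12 neighbours at 4q35, such as FAT1 (a protocadherin) and SLC25A4 (the ADP/ATP carrier of mitochondria), had a peak in either replicate. The nearest of them was the tubulin pseudogene TUBB7P, 37.2 kb from a peak in A and 192 kb in B. None of 19 neighbours at 10q26, such as CYP2E1 (a cytochrome P450 that oxidises ethanol) and SYCE1 (a synaptonemal complex protein), had one. The nearest was SPRNP1, 117 kb away in both. None of 23 genes known as targets of DUX4, such as ZSCAN4, LEUTX and TRIM43, and none of 15 regulators of D4Z4 chromatin, such as SMCHD1, DNMT3B and LRIF1, had a peak. With 406 and 395 peaks over the genome, an absence from lists of this size is not informative about the single genes.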

How the data were processed

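Chem-seq peaks of 2 SVS-1 capture libraries of A549 cells were used. Per the submitters' processing notes, bcl2fastq 2.17, Trimmomatic 0.36, Bowtie2 2.2.5 and hg38 were used. How peaks were called, whether the input entered the calling and how reads fitting several copies were placed is not given in the sources used here. Each library has its own deposited list, in which the authors gave every peak a score of no stated scale. Rows count from 0 with both ends included and are given here counted from 1.

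Peaks were related to 59792 RefSeq genes of GRCh38 patch 14, of which 831 in scaffold coordinates were left out. A gene had a peak when one overlapped it, or the flanking 5 kb. Sharing between lists required an overlap of 1 bp or more. Promoter windows, from 250 bases before to 50 after a start, came from RefSeq. Chromosome lengths came from GenomeInfoDb 1.38.1. Python 3.11.15, pandas 2.3.3, scipy 1.17.1 and Biopython 1.88 were used. The sharing rules were tested on simulated data.

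No test between groups was made: 2 capture libraries, inputs not analysed here and peaks chosen by position allow none. The peaks and gene lists were chosen with earlier results of these data known. Genes named are DUX4, FRG1, FRG2, FRG2B, every gene with a peak of these ends within 5 kb, and listed genes with a peak. Named after their values were seen were the block limits DUX4L8, DUX4L2, DUX4L25 and DUX4L10, DBET, FRG2C, RPL23AP84, RPL23AP60, ROCK1P1, and the examples from lists without a peak. Alternatives were other overlaps (50% of both peaks, within 1 kb), the better-scoring 50% of a list, other gene windows, the last 1 Mb, other points of the peak, and 1 replicate alone.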

Additional observations from a re-analysis of the deposited data

How the results depend on the processing

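The count of 7 peaks in both lists was 9 over the last 1 Mb of each chromosome and 5 in the top 50% of each list, and ranged from 2 to 5 with 1 replicate left out, where 2 is the count without replicate A. The 4 shared peaks, counted in both lists, were 4 with an overlap of 50% of both peaks and in the top 50% by score, and 5 within 1 kb, since the weak DUX4 peak of A then counts as shared. All 7 peaks were within 5 kb of a DUX4 family copy, and 2 to 5 with 1 replicate left out. With the gene body only 4 were, and 4 with 1 kb on either side, because the 10q peaks lie outside the copies. Those 10q copies are annotated with far shorter spans than DUX4. The 1 peak near an FRG gene stayed 1 with 50 kb on either side and was 0 to 1 with 1 replicate left out (0 without replicate A). The mean midpoint, 5.05 kb from the start of DUX4, was 3.68 kb by the start of the peak and 6.43 kb by its end. The 5.01 kb from DUX4L20 at 10q was 3.43 kb and 6.58 kb. The mean length covered, 6.6 kb, was 6.3 kb in the top 50%. No paired analysis was possible because the results come from no test and the inputs were not analysed here. Read depth is unknown, so a missing peak is not an absence of binding.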

Other observations

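DUX4 copies also lie outside 4q and 10q, and peaks near them were called in 1 replicate only. Of 42 members of the DUX family elsewhere, 0 had a peak within 5 kb in A and 5 had one in B, where the share over all 58961 annotated genes was 0.142% in A and 0.129% in B. Of these, 4 were the chromosome Y copies DUX4L16, DUX4L17, DUX4L18 and DUX4L19, annotated between 11306918 and 11333853. The peaks of B near DUX4L16 scored 12.61, 7.24, 6.97 and 4.21, and 2 of these (6.97 and 4.21) are also within 5 kb of DUX4L17. The peak between DUX4L17 and DUX4L18 scored 5.97, another near DUX4L18 scored 5.47, and the one near DUX4L19 scored 4.05. None of them overlapped the body of a copy: the closest lay 1.22 kb from DUX4L16. Replicate B had 56 peaks on chromosome Y, of which 10 lay in the stretch around these copies, and the 4 copies were the only ones of the 542 annotated genes of the chromosome with a peak of B within 5 kb (0.738%). Replicate A had 0 peaks on chromosome Y, so the lack of peaks of A at these copies is not separate from that of the chromosome. The fifth gene, DUX4L50 on chromosome 9, had a peak of B 5000 bp away with a score of 4.03.

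Of 21 members of the FRG family elsewhere, 1 had a peak within 5 kb in A and 0 in B, beside the same shares over all genes. It was the pseudogene FRG2JP on chromosome 16, whose body held a single window at 35247301 to 35247400 with a score of 4.02, rank 398 of 406. These values are given without a test.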
